A study of Mus musculus with 38 samples.

Results

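The comparison set brown adipose tissue of mice on a high fat diet with 75 microgram of Kal-1 against the same tissue of mice on a low fat control diet. It asked what stayed different from the control diet under the highest dose. Its members were the HF75 and LFC arrays of weeks 3, 6, 9, 12, 15 and 18, which are 12 of the 38 arrays of the series, 6 in each group. The arrays were chosen by their group and time labels alone.

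The mice were C57BL/6J, weaned and 3 to 4 weeks old when they were divided at random into 5 groups of 30 animals. The LFC group ate a diet with 10% of calories from fat. The HF75 group ate a diet with 60% of calories from fat and increased sucrose, and received 75 microgram of Kal-1, an aqueous herbal formulation. The HFC group ate the same high fat diet without Kal-1. Every 3 weeks 5 animals of each group were sacrificed. The labels give 1 array per group and week and do not say whether an array holds the RNA of 1 animal or of a pool. The weeks therefore served as replicates, and the 2 arrays of a week were compared as a pair. A p value here measures the spread between weeks, and the difference between the groups combines the diet with Kal-1.

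Brown adipose tissue burns fatty acids in its mitochondria and releases the energy as heat through the uncoupling protein Ucp1. It also makes fatty acids from glucose and fructose carbon. Acly and Acss2 make acetyl-CoA, Acaca makes malonyl-CoA, Fasn joins the units to palmitate, Elovl6 lengthens it and Scd1 adds a double bond. The enzymes of this route are known to be kept high by carbohydrate and insulin through the factors Srebf1 and Mlxipl, and low by dietary fat. In bulk tissue, fewer cells of a type and less RNA per cell cannot be told apart.

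Values are log2 of the processed signal relative to the 75th percentile of the same array, so a value of 0 is the signal of that percentile. Differences are HF75 minus LFC, and a difference of -1 is a signal 2-fold lower in HF75. The 75th percentile ran from 35.1 to 1023 intensity units, and 43.1% to 70.4% of spots were well above background. The LFC arrays of weeks 3, 9 and 12 and the HF75 array of week 3 were bright, with 75th percentiles over 600. The 3 bright LFC arrays correlated with each other across genes at 0.967 or more, and with the other 9 arrays at 0.792 to 0.857. The paired arrays were alike in brightness at weeks 3, 6, 15 and 18 and unlike at weeks 9 and 12. The SD of the differences over all genes was 0.741, 0.83 and 0.982 at weeks 6, 15 and 18, and 1.87 to 1.98 at weeks 3, 9 and 12. On the bright LFC arrays the most abundant mRNAs reached the upper limit of the scanner, so the LFC values of those genes are lower bounds there.

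The HF75 array of week 3 went against its tissue label. Ucp1 was at -3.07 on it and at 3.38 to 6.96 on the other 11 arrays. Cidea, a lipid droplet protein of brown fat, was at -1.78 against 5.58 to 7.56, and Cox8b, a subunit of cytochrome c oxidase, was at -2.01 against 4.04 to 6.74. The array lay below all 11 others in these and in 5 more of the 12 brown adipocyte markers, namely Ppargc1a, Zic1, Lhx8, Elovl3 and Pparg. Zic1, Lhx8 and Elovl3 were not well above background on it. Lhx8 was well above background on only 5 of the 12 arrays, so its place below the others carries little weight. The remaining 4 markers, Prdm16, Ebf2, Adrb3 and Adipoq, lay within the range of the others. For these reasons each main result is given over all 6 weeks and over weeks 6, 15 and 18, at which both arrays were dim and both carried the brown markers.

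**Figure D1:**
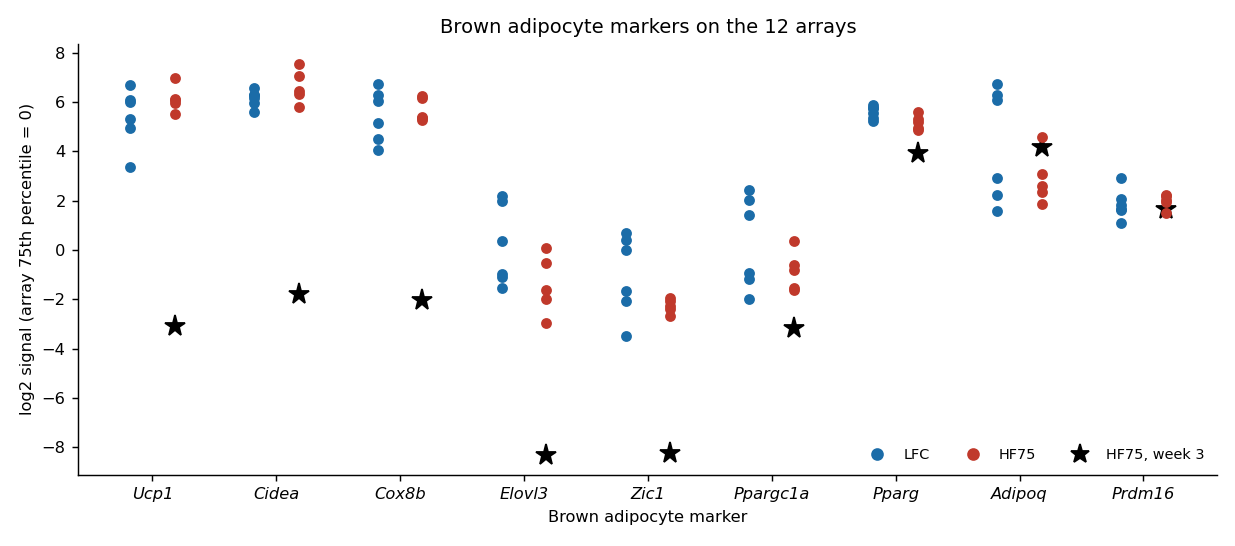
Signal of 9 brown adipocyte markers on each of the 12 arrays (vertical axis, log2 relative to the 75th percentile of the array), with LFC in blue, HF75 in red and the HF75 array of week 3 as a black star. The star lies below every other array for Ucp1, Cidea, Cox8b, Elovl3, Zic1, Ppargc1a and Pparg, and within the range of the others for Adipoq and Prdm16.

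Among 17252 genes tested with limma, 0 (0%) passed an adjusted p of 0.05, and no adjusted p was below 0.135. Without adjustment 1334 genes had a p under 0.05 with higher values in HF75 (7.73%) and 1290 with lower values (7.48%), where chance gives 863 in all. Leaving out 1 week gave 1473, 1322 and 941 such genes without weeks 3, 9 and 12, and 2947 to 3025 without week 6, 15 or 18. HF75 lay above LFC at all 6 weeks in 718 genes (4.16%) and below in 546 (3.16%). With weeks 6, 15 and 18 alone, HF75 lay above LFC at all 3 weeks in 3439 genes (19.9%) and below in 2135 (12.4%). The median difference over all genes was 0.06 on the log2 scale. A fit over all 30 arrays of weeks 3 to 18, in which the 5 groups share one estimate of the spread, called 5 genes (0.029%), all lower in HF75. They were Scd1, Golga7b, 1700018G05Rik, LOC677051 and Gm9112. Scd1 was well above background on 6 LFC and 6 HF75 arrays. The others were so on 6 LFC arrays and on 0 to 2 HF75 arrays. Their LFC arrays alone met the filter on dim probes, so the shared direction of these genes is not independent of that filter. None of the differences below passed the threshold over the 12 arrays, and those of the lists below are descriptions.

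The genes of fatty acid synthesis had the lowest median difference of the 19 pathway lists. Of the 20 genes of the list 18 were tested (Acacb and Pklr were too dim), and 0 passed the adjusted threshold. Without adjustment 12 of 18 had a p under 0.05, all lower in HF75 (7.48% of all genes). Lower at all 6 weeks were 10 of 18 (3.16% of all genes). These 10 were Acly, Acss2, Acaca, Elovl6, Scd1, Me1, Mlxipl, Thrsp, Pnpla3 and Insig1. The median difference of the list was -2.57 over 6 weeks, -1.97 without week 3 and -1.12 over weeks 6, 15 and 18. At weeks 6, 15 and 18, 13 of 18 were lower at all 3 weeks (12.4% of all genes) and 1 was higher (19.9%).

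The upstream sequences of 4 of these 10 genes are shown as examples that hold the motif CCAAT, and were chosen for it. The windows of Acly, Acaca and Elovl6 hold none of the motifs searched. Each is the run of 250 bases before the annotated start of the gene in RefSeq (GRCm38.p6), written 5′ to 3′ on the strand of the gene. Capitals mark the motif CCAAT, read on either strand (ATTGG on the other), and the motif CACGTG. The windows are chr2:155517793-155518042 on the plus strand for Acss2, chr15:84167566-84167815 on the plus strand for Pnpla3, chr7:97417551-97417800 on the minus strand for Thrsp and chr5:28071162-28071411 on the plus strand for Insig1.
Acss2: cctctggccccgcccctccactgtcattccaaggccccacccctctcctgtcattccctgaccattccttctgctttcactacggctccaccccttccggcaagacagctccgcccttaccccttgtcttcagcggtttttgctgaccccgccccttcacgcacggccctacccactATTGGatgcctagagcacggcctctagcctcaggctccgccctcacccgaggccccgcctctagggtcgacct
Pnpla3: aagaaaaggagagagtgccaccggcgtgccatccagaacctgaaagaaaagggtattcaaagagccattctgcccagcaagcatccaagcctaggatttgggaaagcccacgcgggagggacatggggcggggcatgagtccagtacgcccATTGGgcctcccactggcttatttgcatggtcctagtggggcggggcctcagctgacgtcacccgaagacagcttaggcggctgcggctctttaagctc
Thrsp: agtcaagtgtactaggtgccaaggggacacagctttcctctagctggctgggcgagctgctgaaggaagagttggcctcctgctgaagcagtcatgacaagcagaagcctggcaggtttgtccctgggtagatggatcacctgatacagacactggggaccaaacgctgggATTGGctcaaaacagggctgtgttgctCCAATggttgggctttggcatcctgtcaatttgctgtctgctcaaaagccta
Insig1: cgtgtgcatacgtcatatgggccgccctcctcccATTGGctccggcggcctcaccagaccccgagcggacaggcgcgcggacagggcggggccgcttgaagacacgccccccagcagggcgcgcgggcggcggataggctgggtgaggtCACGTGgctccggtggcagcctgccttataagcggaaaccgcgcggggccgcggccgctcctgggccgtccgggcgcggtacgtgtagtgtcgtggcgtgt
CCAAT begins at -73 in Acss2, at -99 in Pnpla3, at -79 and -52 in Thrsp and at -216 in Insig1, counted back from the start of the gene, and CACGTG begins at -101 in Insig1. The table of upstream sequences holds 9 of the 10 genes. CCAAT was in 6 of these 9 and in 37.49% of all 27025 genes with a window. CACGTG was in 2 of 9 and in 6.86% of all genes. TCACNCCAC, searched on both strands, was in 1 of 9 and in 1.22% of all genes. Of the 18 tested genes 14 were in the table, and CCAAT was in 10, CACGTG in 4 and TCACNCCAC in 1.

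Scd1, the desaturase that turns stearate into oleate, on chromosome 19, had the smallest p of all genes. Its LFC values were 6.58, 4.90, 6.00, 6.30, 5.55 and 5.62 at weeks 3 to 18, and its HF75 values were 3.84, 2.11, 2.84, 3.49, 3.16 and 1.48. Every HF75 array lay below every LFC array, with a gap at week 15, the closest pair, of -2.38. The mean was 5.82 ± 0.60 in LFC and 2.82 ± 0.88 in HF75 (SD, n = 6 each), a difference of -3.01 (SE 0.30), or 8.03-fold lower. The adjusted p was 0.135 over the 12 arrays and 0.0233 over the 30 arrays. Over weeks 6, 15 and 18 the difference was -3.10. Scd1 was saturated on the LFC arrays of weeks 3, 9 and 12, where the true LFC level may be higher. HFC lay 1.93 below LFC on the log2 scale (a difference of -1.93, SE 0.25), and HF75 minus HFC was -1.08 (SE 0.36).

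The enzymes before Scd1 in the route lay the same way, with a wider spread. Acly, the citrate lyase that supplies acetyl-CoA in the cytosol, was at 6.12, 2.31, 4.76, 5.23, 2.38 and 1.99 in LFC and at 0.18, 1.21, 2.16, 1.40, 0.73 and -0.36 in HF75. The differences were -5.95, -2.60 and -3.84 at weeks 3, 9 and 12, and -1.10, -1.64 and -2.35 at weeks 6, 15 and 18. HF75 was lower in every pair, while the groups overlapped because the LFC arrays of weeks 6, 15 and 18 were themselves low. The mean difference of Acly was -2.91 (SE 0.61, adjusted p = 0.320 by limma), and -1.70 over weeks 6, 15 and 18.

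Acss2, which makes acetyl-CoA from acetate, ran from 0.26 to 5.85 in LFC with a median of 3.14, and from -1.49 to 0.35 in HF75 with a median of -0.62. The highest HF75 value lay just above the lowest LFC value. Its difference was -3.79 (SE 0.86), and -1.59 over weeks 6, 15 and 18. Acaca, the carboxylase that makes malonyl-CoA, ran from -0.47 to 4.69 in LFC with a median of 2.05, and from -2.70 to -0.95 in HF75 with a median of -1.95. The groups of Acaca did not overlap. Its difference was -4.00 (SE 0.91), and -1.65 over weeks 6, 15 and 18.

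Elovl6, the elongase that lengthens palmitate to stearate, ran from 1.36 to 6.65 in LFC with a median of 3.84, and from -1.49 to 1.27 in HF75 with a median of -0.10. Its groups did not overlap either. The difference was -3.93 (SE 0.91), and -1.64 over weeks 6, 15 and 18, where the 3 weekly values were -1.60, -1.71 and -1.63. Me1, the malic enzyme that supplies NADPH for synthesis, ran from 2.63 to 6.63 in LFC and from 1.05 to 2.91 in HF75. The difference was -2.57 (SE 0.55), and -1.24 over weeks 6, 15 and 18. A second probe set, under the older name Mod1, had a difference of -2.91 (SE 0.59) with groups that did not overlap.

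Fasn, the fatty acid synthase, could be compared without saturation at weeks 6, 15 and 18 only. Its LFC values were 6.67, 7.16, 5.98, 6.30, 6.94 and 6.55, and its HF75 values were 4.40, 6.22, 6.90, 6.20, 5.72 and 4.52. The differences were -0.94, -1.22 and -2.03 at weeks 6, 15 and 18, lower in HF75 at all 3, and -2.27 at week 3. Fasn was saturated on the LFC arrays of weeks 3, 9 and 12, so its LFC level there is a lower bound, and the order of the groups at week 9 cannot be read. Its difference was -0.94 (SE 0.45, adjusted p = 0.343 by limma), and -1.39 over weeks 6, 15 and 18. HFC minus LFC was 0.27 (SE 0.35), a value that includes the 3 saturated LFC arrays. At weeks 6, 15 and 18 HFC stood at 6.79, 6.16 and 7.10, below LFC at weeks 6 and 15 and above it at week 18. HF75 minus HFC was -1.21 (SE 0.36), lower at all 6 weeks.

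**Figure D2:**
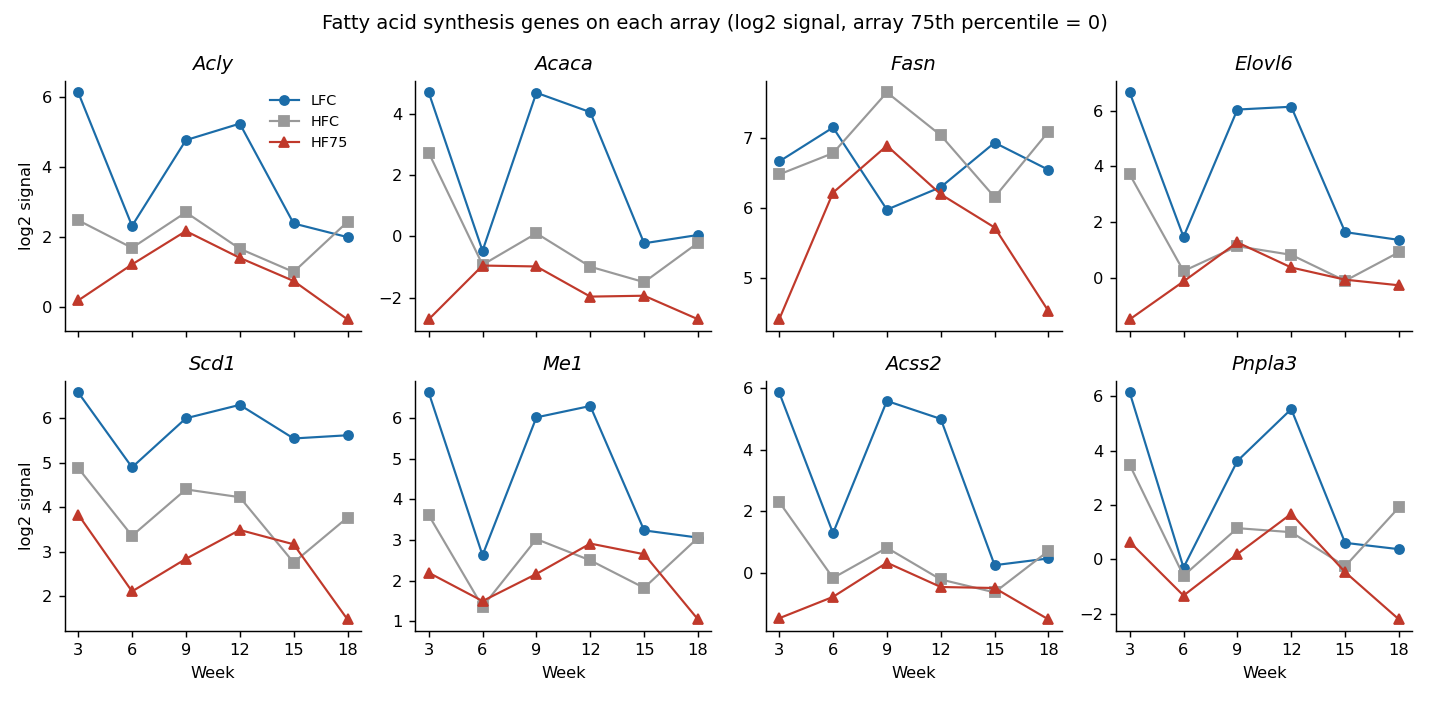
Signal of 8 fatty acid synthesis genes on each array (vertical axes, log2 relative to the 75th percentile of the array, each panel with its own scale) against the week, with LFC as blue circles, HFC as grey squares and HF75 as red triangles. HF75 lies below LFC at all 6 weeks in every panel but that of Fasn, and the LFC lines of Acly, Acaca, Elovl6, Me1, Acss2 and Pnpla3 stand highest at weeks 3, 9 and 12.

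The regulators of the route differed among themselves. Mlxipl, which encodes the carbohydrate response factor ChREBP, had a difference of -3.83 (SE 0.98), and -1.31 over weeks 6, 15 and 18. Srebf1, which encodes SREBP-1, ran from 2.82 to 6.57 in LFC and from 2.69 to 3.21 in HF75. Its difference was -1.70 (SE 0.59), but -0.20 over weeks 6, 15 and 18, where the weekly values were -0.50, -0.13 and 0.02. Insig1, which holds SREBP in the endoplasmic reticulum, had a difference of -2.58 (SE 0.75) with groups that did not overlap, and -0.73 over weeks 6, 15 and 18. It was well above background on 3 of 6 HF75 arrays.

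Pnpla3, a lipid droplet protein that is induced by feeding, ran from -0.30 to 6.14 in LFC with a median of 2.11, and from -2.21 to 1.68 in HF75 with a median of -0.14. Its difference was -2.91 (SE 0.60), and -1.56 over weeks 6, 15 and 18. Thrsp, a nuclear protein of lipogenic tissues, had a difference of -1.64 (SE 0.54), and -0.99 over weeks 6, 15 and 18, at which the weekly values were -0.91, -1.02 and -1.05. Scd2, a relative of Scd1, had a difference of -1.61 (SE 0.71) but 0.05 over weeks 6, 15 and 18. The remaining tested members were Slc25a1, the mitochondrial citrate carrier (-2.61, SE 0.79), Dgat2 (-0.79, SE 0.54), Fads1 (-0.23, SE 0.30), Fads2 (-0.01, SE 0.31) and Elovl5 (0.38, SE 0.30).

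**Figure D3:**
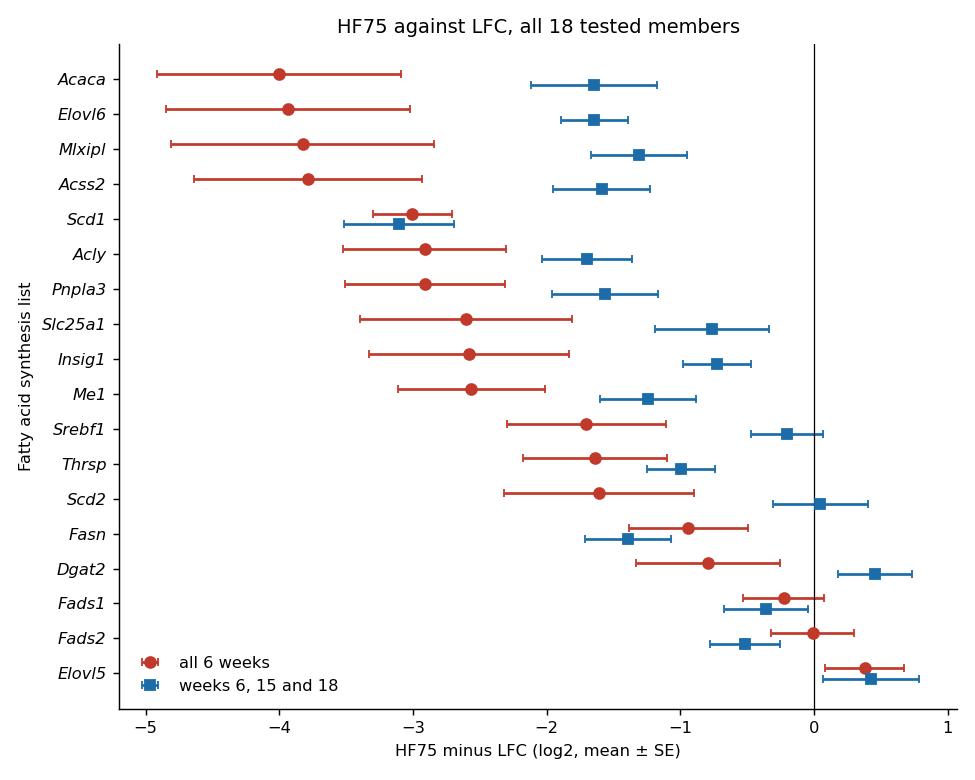
Difference HF75 minus LFC (horizontal axis, log2, mean ± SE) for the 18 tested fatty acid synthesis genes, with red circles for all 6 weeks and blue squares for weeks 6, 15 and 18. Scd1 and Fasn keep or exceed their size in weeks 6, 15 and 18, while most other members lie closer to 0 there and Srebf1, Scd2 and Dgat2 lie near or above 0.

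The sugar carriers differed among themselves. Slc2a5, the fructose transporter, was at 4.87, -1.38, 4.01, 3.87, -1.11 and -0.84 in LFC and at -5.40, -3.36, -0.27, -0.66, -3.50 and -3.13 in HF75. HF75 was lower in every pair by 1.99 or more on the log2 scale (differences from -10.27 to -1.99). Its difference was -4.29 (SE 1.03), and -2.23 over weeks 6, 15 and 18. Slc2a4, the insulin-dependent glucose transporter, had a difference of -1.88 (SE 0.60), and -0.38 over weeks 6, 15 and 18, lower at all 6 weeks. Slc2a1, the basal glucose transporter, lay the other way, with a difference of 1.31 (SE 0.53) and 0.39 over weeks 6, 15 and 18, higher at 5 of 6 weeks. In the list of glucose uptake and glycolysis, 18 of 19 genes were tested. Without adjustment 4 were lower and 1 higher (7.48% and 7.73% of all genes). The median was -0.70, or 0.17 over weeks 6, 15 and 18.

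The genes of cholesterol synthesis were low in HF75 mainly where the LFC array was bright or the week was 3. Of 20 genes tested 10 had an unadjusted p under 0.05, all lower (7.48% of all genes), and 5 were lower at all 6 weeks (3.16%). The mean difference of the list was -2.44, -1.98 and -1.95 at weeks 3, 9 and 12, and -0.20, -0.04 and -0.12 at weeks 6, 15 and 18. The 5 genes lower at every week were Fdft1 and Sqle, which make squalene and its epoxide, Lss, which closes the ring, and Tm7sf2 and Nsdhl, which act on the sterol that follows. At weeks 6, 15 and 18 their mean differences were -0.72 for Fdft1, -0.30 for Sqle, -1.05 for Lss, -0.59 for Tm7sf2 and -0.83 for Nsdhl. In HF75 Lss was well above background on 1 array and Nsdhl on 4 of 6 arrays. The size of the Lss difference therefore rests on signals below detection. Cyp51, a further enzyme of the route, was too dim to be tested. It was well above background on 4 LFC arrays and 1 HF75 array.

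The genes of fat burning gave differences of opposite direction in the 2 sets of weeks. The list of fatty acid oxidation had a median difference of -0.88 over 6 weeks and of 0.70 over weeks 6, 15 and 18, at which 15 of 20 tested genes were higher in HF75 at all 3 weeks and 0 were lower. The mean of the list was 0.77, 0.65 and 0.31 higher in HF75 at weeks 6, 15 and 18, and its differences were -3.59, -1.41 and -1.59 at weeks 3, 9 and 12. Over weeks 6, 15 and 18 the mitochondrial respiration list had 13 of 20 genes higher at all 3 weeks (median 0.36, against -0.61 over 6 weeks). The tricarboxylic acid cycle list had 8 of 16 (0.38, against -1.13). The brown thermogenic list had 7 of 16 (0.49, against -1.06). None of these lists had a gene lower at all of these 3 weeks. The shares of all genes higher and lower at those 3 weeks, 19.9% and 12.4%, are the background of these counts.

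Ucp1 stood at 5.33, 4.93 and 3.38 in LFC and at 5.96, 6.11 and 5.52 in HF75 at weeks 6, 15 and 18. HF75 was higher at each of these weeks, by 0.63, 1.18 and 2.14. At weeks 9 and 12 it was higher by 0.95 and 0.02, with LFC saturated at week 9. At week 3 the difference was -9.78. Over 6 weeks the difference of Ucp1 was therefore -0.81 (SE 1.46), without week 3 it was 0.98, and over weeks 6, 15 and 18 it was 1.32 (SE 0.37). HFC minus LFC was 1.45 (SE 0.45).

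Some other genes of the brown adipocyte lay the same way over weeks 6, 15 and 18, and others did not. Higher at all 3 weeks were 7 of the 16 thermogenic genes and 3 of 11 brown markers (19.9% of all genes were). These 3 markers were Ucp1 itself, Cidea and Cox8b. The other brown markers had differences of both signs at these weeks, from -0.66 to 0.38 for Pparg and from -0.78 to 1.19 for Adrb3. The genes described here were chosen after their values were seen. Elovl3, an elongase of brown fat, was at -0.44 and was higher at 1 of these weeks. Cpt1b, which admits fatty acids to the mitochondrion, had weekly differences of 0.88, 1.41 and 1.0 and a mean of 1.1. Plin5, a droplet protein that tethers fat to mitochondria, had 0.99, 1.48 and 1.94 and a mean of 1.47. Fabp3, a fatty acid carrier in the cytosol, had 1.05, 1.25 and 2.44 and a mean of 1.58. Gyk, the glycerol kinase, had a mean of 1.69 and was higher at each of the 3 weeks. Over all 6 weeks the differences of these 4 genes were -1.45, -1.28, -0.95 and -0.34. Cidea and Cox8b had 0.19 and 0.77 over weeks 6, 15 and 18 (-0.90 and -1.06 over 6 weeks). Dio2, which makes active thyroid hormone, was lower by 0.23 at week 6 (a difference of -0.23) and higher by 3.09 and 2.19 at weeks 15 and 18. Its difference over 6 weeks was -0.08 (SE 0.96).

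Cd36, the membrane carrier of long fatty acids, was higher in HF75 at all 6 weeks. It ran from 4.84 to 6.08 in LFC with a median of 5.50, and from 5.86 to 7.65 in HF75 with a median of 6.29. The groups overlapped slightly, and the difference was 0.92 (SE 0.27, adjusted p = 0.320 by limma). It was 0.84 over weeks 6, 15 and 18, and HFC minus LFC was 0.15 (SE 0.31). Lipe, the hormone-sensitive lipase, was lower at all 6 weeks, with a difference of -1.49 (SE 0.53) and -0.35 over weeks 6, 15 and 18. In the list of lipolysis and lipid droplet genes 17 of 19 were tested. Without adjustment 2 were higher and 2 lower (7.73% and 7.48% of all genes). The median was -0.40, or 0.76 over weeks 6, 15 and 18. At all 3 of these weeks 10 were higher and 2 lower (19.9% and 12.4% of all genes).

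**Figure D4:**
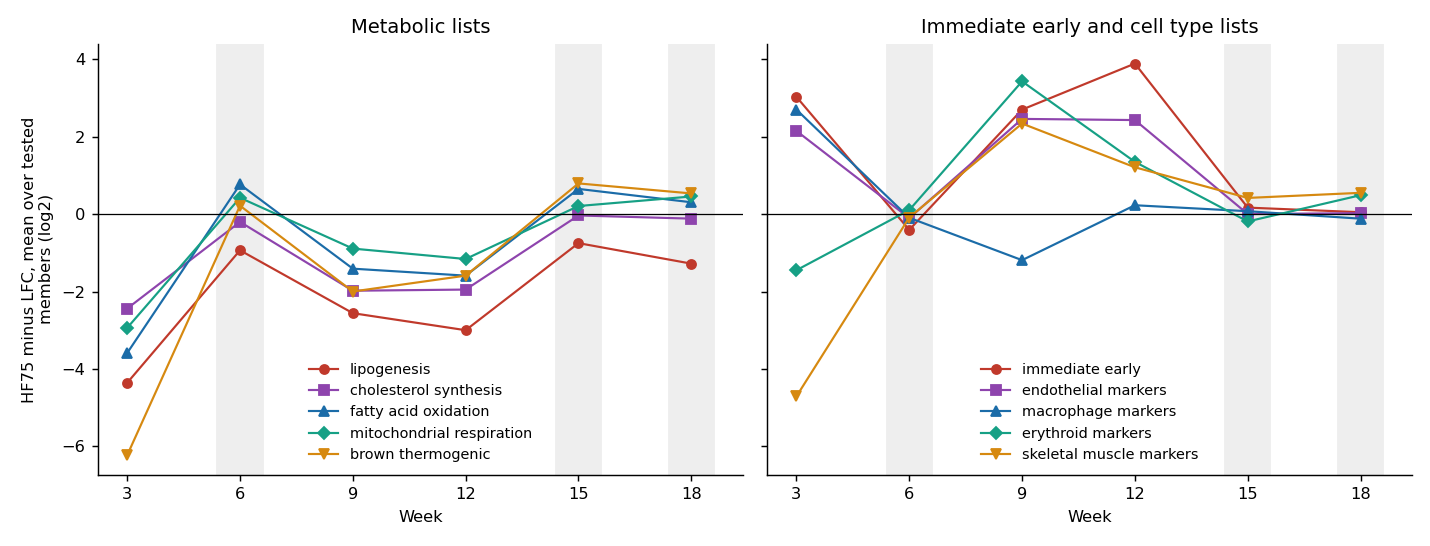
Difference HF75 minus LFC, averaged over the tested members of a list (vertical axis, log2), against the week, with metabolic lists on the left and the immediate early and cell type lists on the right. Grey bands mark weeks 6, 15 and 18, at which lipogenesis stays below 0 (-0.94, -0.75 and -1.28), fatty acid oxidation lies above 0 and the endothelial list lies near 0.

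The study's methods, in liver, asked for a 2-fold change in all treated samples of a single time point. Here a 2-fold difference in the same direction at all 6 weeks was asked for instead, with 1 array per group and week. It was met by 13 genes lower in HF75 (0.0754% of those tested) and 1 gene higher (0.0058%). Without the filter on dim probes these counts were 13 and 12, so the excess of lower genes depended on that filter. With the normexp background correction they were 1 and 0, without week 6 36 and 52, and without week 15 32 and 22. Without week 18 the higher count was 43. The lower genes were Scd1, Acly, Elovl6, Pnpla3, Slc2a5, Golga7b, Cyp27a1, 2310035K24Rik, LOC677051, Gm9112, Gm11295, Gm3866 and 1700018G05Rik. All 6 HF75 arrays lay below all 6 LFC arrays in 45 genes (0.261%) and above them in 28 (0.162%). Gm9112 and Gm3866 were not well above background on any HF75 array and were at least 3.87-fold and 6.60-fold lower in HF75, where the HF75 level was set to the lowest signal called well above background. Both passed the filter through their 6 LFC arrays alone. Golga7b, Cyp27a1 and 1700018G05Rik were well above background on 1 HF75 array each.

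Golga7b, whose product serves as a partner of a palmitoyl transferase, had LFC values from -2.98 to -0.50 with a median of -2.10. Its HF75 values ran from -5.88 to -4.40 with a median of -4.97, and the groups did not overlap. The difference was -3.05 (SE 0.35), with an adjusted p of 0.187 over 12 arrays and 0.0233 over 30 arrays. Golga7b was well above background on 6 LFC arrays and on 1 HF75 array. When signals below detection were set to the detection level of their array, the difference was -1.48. HFC minus LFC was -3.46 (SE 0.45), and HF75 minus HFC was 0.41 (SE 0.32).

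The other named genes with the smallest p values among those lower at all 6 weeks had adjusted p values of 0.320 by limma. Cyp27a1, the sterol hydroxylase of mitochondria, had a difference of -2.06 (SE 0.34), and -1.52 over weeks 6, 15 and 18. Amy2a5, a pancreatic amylase, had -2.84 (SE 0.51), and it was lower in HF75 than in HFC at all 6 weeks (-2.24, SE 0.52). Mthfd1, an enzyme of folate metabolism, had -1.52 (SE 0.31). Tha1, a threonine aldolase, had -2.15 (SE 0.44) with groups that did not overlap. Supt3h, a component of a transcription complex, had -1.55 (SE 0.30), and Spsb1, a SOCS box protein, had -1.48 (SE 0.31), but 0.22 with the normexp background correction. In HF75 Cyp27a1 was well above background on 1 array, Tha1 and Spsb1 on 2, and Amy2a5 and Supt3h on 3 of 6 arrays. When signals below detection were set to the detection level, the differences were -1.03 for Cyp27a1, -0.69 for Tha1, -0.46 for Spsb1, -1.83 for Amy2a5 and -1.21 for Supt3h.

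Other genes were higher in HF75 at every week. Fzd6, a Wnt receptor on chromosome 15, ran from -2.14 to -0.46 in LFC with a median of -1.17, and from -0.36 to 0.91 in HF75 with a median of 0.04. The groups did not overlap, and the weekly differences lay between 0.91 and 2.14. The mean difference of Fzd6 was 1.42 (SE 0.26), it was 1.18 over weeks 6, 15 and 18, and HFC minus LFC was 0.30 (SE 0.38). Scn3b, a sodium channel subunit, ran from -4.67 to -1.82 in LFC and from -1.67 to -0.70 in HF75, again without overlap. Its difference was 1.92 (SE 0.38), and 1.5 over weeks 6, 15 and 18. HF75 was above HFC at all 6 weeks for both, by 1.12 (SE 0.36) and 1.47 (SE 0.39).

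Tcf23, a helix-loop-helix factor, was the 1 gene at least 2-fold higher at every week among those that passed the filter on dim probes. It ran from -5.11 to -0.09 in LFC and from -1.10 to 1.33 in HF75, with weekly differences from 1.01 to 4.01. The mean was 2.05 (SE 0.42), and 1.26 over weeks 6, 15 and 18. The remaining genes named for their small p values were Armc3 (1.96, SE 0.35), Fes, a tyrosine kinase of myeloid and endothelial cells (1.53, SE 0.29), Mgam (2.17, SE 0.41), Icam2, an endothelial adhesion molecule (1.68, SE 0.32), Prok2, a secreted prokineticin (3.58, SE 0.71), Pou3f1 (1.98, SE 0.39), Cst6 (1.49, SE 0.31) and Ccdc85b (1.5, SE 0.31). Their adjusted p was 0.320. Over weeks 6, 15 and 18 the differences of these 8 genes lay between 0.99 for Ccdc85b and 2.12 for Prok2. Prok2 was well above background on 2 LFC arrays and 5 HF75 arrays, Armc3 on 4 and 6, and Mgam on 4 and 4. The sizes of these 3 differences therefore rest in part on signals below detection.

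Endothelial markers and immediate early genes were higher in HF75 at weeks 3, 9 and 12. Of 13 endothelial markers 6 had an unadjusted p under 0.05, all higher, and of 18 immediate early genes 11, all higher, where 7.73% of all genes were higher. With the normexp background correction the list medians were 0.45 and 0.88, against 1.2 and 1.53. The mean difference of the endothelial list was 2.15, 2.46 and 2.43 at weeks 3, 9 and 12, and -0.10, 0.002 and 0.02 at weeks 6, 15 and 18. The mean of the immediate early list was 3.03, 2.70 and 3.89, and then -0.41, 0.17 and 0.05. The values thus moved with the 3 bright LFC arrays, and the part of brightness in them was not tested.

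Flt1, a receptor of vascular growth factor, was higher at all 6 weeks with a difference of 1.47 (SE 0.40), and 0.72 over weeks 6, 15 and 18. Eng, a co-receptor of the TGF beta family, had 1.41 (SE 0.40) and 0.51, and Cdh5, the cadherin of endothelial junctions, had 1.65 (SE 0.52) and 0.34. These were the only 3 of 13 endothelial markers higher at all of weeks 6, 15 and 18 (19.9% of all genes were). Lower at all 3 were 2 markers (12.4% of all genes), Cldn5 (-1.37 to -0.42) and Tie1 (-0.64 to -0.62). Among the immediate early genes Egr2 was higher at all 6 weeks, with 1.46 (SE 0.50) and 0.43. Jund had 1.29 (SE 0.43) and 0.42, and Klf4 1.56 (SE 0.55) and 0.23. Of the 18 immediate early genes 3 were higher and 4 lower at all of weeks 6, 15 and 18. Those lower were Atf3 (-1.88 to -0.88), Zfp36 (-1.39 to -0.12), Nr4a2 (-1.06 to -0.17) and Jun (-0.29 to -0.18). Fos, the best known of these genes, was at -2.60 and -3.34 in LFC at weeks 9 and 12 and between 1.48 and 6.30 on the other LFC arrays. Its difference was 2.79 (SE 1.13), but -0.15 over weeks 6, 15 and 18.

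Markers of other cell types were set beside these values. Their counts at an unadjusted p under 0.05 are to be read beside 7.73% of all genes higher and 7.48% lower. The skeletal muscle list had mean differences of -4.71, -0.09, 2.34, 1.21, 0.42 and 0.55 at weeks 3 to 18, with 0 of 14 tested genes at an unadjusted p under 0.05. Acta1, the actin of skeletal muscle, ran from -2.31 to 4.73 in LFC and from -0.32 to 6.27 in HF75. The macrophage list had 2.70 at week 3 and lay between -1.19 and 0.23 at the other weeks, with 1 of 16 higher and 1 lower. The lymphocyte list ran from -1.87 to 3.13 with 0 of 12, and Cd3g, a T cell receptor subunit in it, had a difference of -0.07 (SE 0.77), or 1.02 with signals set to the detection level. The erythroid list ran from -1.45 to 3.43 with 0 of 5, and Hba-a1 was saturated on all 6 LFC arrays, so no fold is given for it. The brown adipocyte markers had 1 of 11 lower and a median of -1.07, or 0.19 over weeks 6, 15 and 18. The white adipocyte markers had 1 of 7 higher, which was Mest, an imprinted gene of fat cell growth (1.01, SE 0.43). Lep and Nnat were too dim to be tested. The nerve and Schwann markers had 1 of 7 higher and a median of 0.76.

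The genes that the high fat diet moved first were followed as a separate set. They were chosen on 8 LFC and HFC arrays of days 6, 10 and 14 and week 0, none of which is among the 12 arrays here. The set held the 20 highest and the 20 lowest differences of HFC minus LFC. Only named genes that went one way at every early time point were eligible. They also had to pass the filter on dim probes, which used the 12 arrays. Of the 20 genes lower on HFC in that time, 13 were lower in HF75 than in LFC over weeks 3 to 18 (65%, against 46.6% of all genes). Their median was -2.22, or -0.62 over weeks 6, 15 and 18 and -0.75 with the normexp background correction. Of these 20, 8 were lower at all 6 weeks (3.16% of all genes), namely Slc2a5, Acly, Me1, Golga7b, Atp4b, Mosc1, Ttc25 and Orm3. Golga7b, Atp4b, Ttc25 and Orm3 were well above background on 5 or 6 LFC arrays and on 1 HF75 array each. They passed the filter mainly through LFC, where they were high, so the counts of lower genes are not independent of it. Of the 20 genes higher on HFC early, 17 were higher in HF75 (85%, against 53.4% of all genes), with a median of 0.76, or 0.24 over weeks 6, 15 and 18. Pawr was higher and Cish lower at all 6 weeks in this set (4.16% and 3.16% of all genes were). Of the 8 early arrays, the LFC array of week 0 and the HFC array of day 10 were bright.

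In the set that was higher early, Slc25a34, a mitochondrial carrier, had 1.90, 3.23 and 3.77 at weeks 6, 15 and 18 (mean 2.97), but a difference of 0.90 (SE 0.82) over 6 weeks, higher at 3 and lower at 3. Pck1, which makes glycerol phosphate for fat storage in this tissue, had 1.82, 1.94 and 1.37 (mean 1.71), and 0.57 (SE 0.55) over 6 weeks (-0.21 with the normexp background correction). Cish, an inhibitor of cytokine signalling, had -1.52 (SE 0.39) over 6 weeks without overlap of the groups. In the set that was lower early, Mosc1, a mitochondrial reductase, had -2.95 (SE 0.64), and Atp4b, a proton pump subunit, had -3.43 (SE 0.89). Orm3, an acute phase glycoprotein, had -2.66 (SE 0.57), and Ttc25 had -3.39 (SE 0.81). Over weeks 6, 15 and 18 these 4 genes had -1.26, -1.42, -1.48 and -1.66. Atp4b, Orm3 and Ttc25 were well above background on 1 HF75 array each, and had -2.83, -1.25 and -2.20 over 6 weeks at the detection level.

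**Figure D5:**
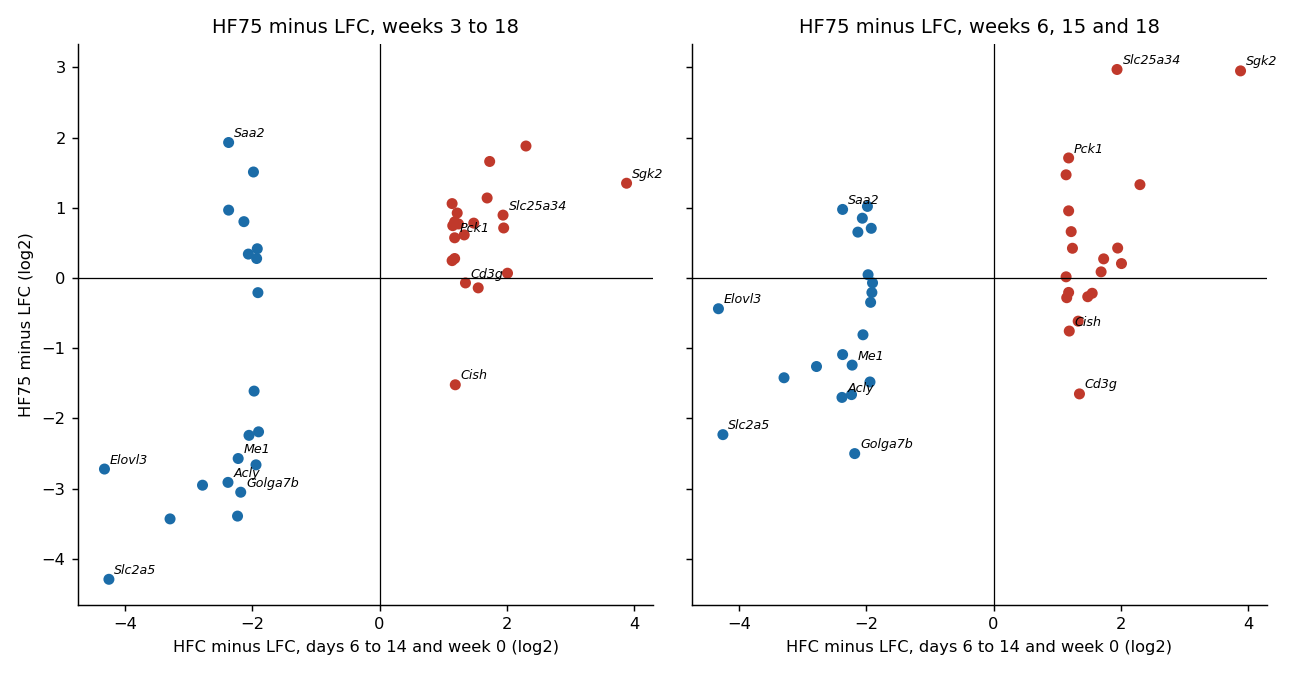
Difference HF75 minus LFC (vertical axes, log2) over weeks 3 to 18 on the left and weeks 6, 15 and 18 on the right, against the early difference HFC minus LFC (horizontal axes, log2), for the 20 genes highest (red) and 20 lowest (blue) on HFC in the early arrays. The median of the blue points is -2.22 on the left and -0.62 on the right, and that of the red points 0.76 and 0.24.

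The values of HFC minus LFC and HF75 minus LFC rest on the same 6 LFC arrays and are set side by side only. HFC against LFC had 0 genes past the adjusted threshold with limma and 1682 at an unadjusted p under 0.05 (602 and 738 without weeks 12 and 9). The fatty acid synthesis list had a median of -1.46 in HFC minus LFC, of -2.57 in HF75 minus LFC and of -1.14 in HF75 minus HFC. For cholesterol synthesis these medians were -1.10, -1.10 and 0.02. For fatty acid oxidation they were 0.14, -0.88 and -1.03, with the HF75 array of week 3 in the last 2 of these. HF75 against HFC had 0 genes past the threshold and 1396 without adjustment (2337 and 862 without weeks 9 and 12, and 402 with the normexp background correction).

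A few genes had been named for HFC against LFC or for their function. Unc119, a lipid-binding trafficking protein, had -1.07 (SE 0.24) in HFC minus LFC and -1.19 (SE 0.30) in HF75 minus LFC. Ccr7, a chemokine receptor, had 3.28 (SE 0.81) and 2.81 (SE 1.08), with 0.31 over weeks 6, 15 and 18 in HF75 minus LFC. Rbp4, the retinol carrier that fat secretes, had -1.56 (SE 0.45) and -2.07 (SE 0.55), and HF75 was lower at all 6 weeks. Pou5f2, a POU domain gene, had -0.37 (SE 0.25) and 0.77 (SE 0.26), and HF75 minus HFC was 1.14 (SE 0.26).

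Whether the difference grew or shrank over time was tested as a slope per week. With limma 0 genes passed, the smallest adjusted p was 0.781, and 844 genes had an unadjusted p under 0.05, where chance gives 863. That count was 281, 3255, 299 and 425 without weeks 3, 6, 15 and 18, 1499 with brightness as a covariate and 180 with the normexp background correction. The 3 genes with the smallest p were Hspa4l, a chaperone (0.27 log2 per week), Myh3, an embryonic myosin (-0.55), and Dgat2l4, an acyltransferase (-0.26). Myh3 was well above background on 3 LFC and 4 HF75 arrays, and Dgat2l4 on 4 and 2. Their slopes therefore rest in part on signals below detection. For Scd1 the difference was -2.75 at week 3 and -4.14 at week 18, with -2.38 at week 15, the smallest of the 6.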

How the data were processed

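Total RNA of brown adipose tissue was labelled with Cy3 and hybridised to 1-colour Agilent arrays. The deposited scanner files hold intensity values per spot from Feature Extraction (version 10.5.1.1 in the file headers, 9.1 per the labels), which the authors' software corrected for background and spatial trend but did not scale between arrays. The deposited table holds log2 ratios of each array to LFC at its time point and served as an alternative. Columns left without a sample numbered 0.

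Processed signals were log2 transformed and each array was scaled to its own 75th percentile. Outlier and control spots were left out. Each gene name was represented by its brightest probe, and 17252 of 29411 names were tested, those above background on 6 or more of the 12 arrays. The number of arrays and the dim signals limit precision. Of 40628 probes 34524 matched RefSeq names (GRCm38.p6). Differences were fitted with limma 3.58.1 (R 4.3.3) with the week as a block, two-sided, with Benjamini-Hochberg adjustment at 0.05, and limma gave all adjusted p values. Python 3.11.15 with pandas 2.3.3 drew the figures with matplotlib 3.10.9.

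Genes were named by rule: those that passed, then up to 10 higher and 10 lower with the smallest p among those going one way at all 6 weeks, 3 for the slope over weeks, 5 each way for HFC against LFC, up to 3 per list, and a fixed set of genes. The text gives a part of these. A few list members were described after their values were seen. The 27 lists (19 pathways and 8 sets of cell type markers) and the members were chosen with earlier results of these data known. The steps were tested on simulated data. Alternatives covered normalization, background correction, the deposited table, filters, probes, samples, blocks, covariates, array weights, the methods' t-test, and leaving out each week.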

Additional observations from a re-analysis of the deposited data

Results flagged for a closer look

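Among 115 genes and list means whose 6 weekly differences between HF75 and LFC were examined, 10 had 1 week far from the other 5, and in 9 of these the week was week 3. By chance about 1 in 20 groups of values shows such a gap. At week 3 the difference was -9.78 for Ucp1, -8.35 for Cidea and -8.75 for Cox8b, 3 genes of the brown adipocyte. At the other weeks it ran from 0.02 to 2.14, from 0.17 to 1.25 and from -0.04 to 1.36. The mean of the brown adipocyte markers was -5.54 at week 3 and between -1.74 and 0.44 at the other weeks. Slc2a5, the fructose transporter, was at -10.3 against -4.53 to -1.99, and Thrsp, a protein of lipogenic tissues, at -4.67 against -1.61 to -0.59. The mean of the skeletal muscle markers was -4.71 against -0.09 to 2.34, and that of the macrophage markers 2.70 against -1.19 to 0.23. Fn1, fibronectin, was at 3.64 against 0.26 to 1.38. The HF75 array of week 3 enters all 9 of these values, and what sets it apart was not tested. Mcm6, a helicase subunit of DNA replication, was at 3.39 at week 12 against 0.32 to 1.23 at the other weeks.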

How the results depend on the processing

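The count of 0 genes passing between HF75 and LFC (limma, 2624 without adjustment) became 1, Scd1, when only genes well above background on all 12 arrays were tested, and 5 with all 30 arrays. It was 0 under the other settings, the methods' t-test with adjustment included (1653 unadjusted), brightness as a covariate (977) and normexp (1221), and 0 without each week in turn. It was also 0 without the replicate block (2358 unadjusted), while HFC against LFC without the block had 598 unadjusted and not 1682. Same-week deviations correlated at 0 to 0.31, and only the arrays of week 6 matched their own week best, so the week number gave little sign of pairing. HFC against LFC went from 0 to 1 gene with normexp. No slide block could be fitted, as each slide held 1 array. The deposited table matched the scanner values at week 15 by spot order (r = 0.988) and not by name (0.002).

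The 13 lower and 1 higher genes with a 2-fold difference at every week became 1 and 0 with normexp. They became 73 and 28 over weeks 6, 15 and 18, and the higher count was 12 without the filter on dim probes. Without 1 week they numbered 13 to 36 and 2 to 52. The early diet genes lower on HFC had a median of -0.75 with normexp, -0.62 over weeks 6, 15 and 18 and of -2.73 to -1.49 without 1 week, and the antioxidant list 0.18 over weeks 6, 15 and 18 and -0.65 to -0.36 without 1 week.

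Of 88 genes, 68 kept their direction under all settings, and the cause of the turns below was not tested. With normexp Acta1 was at -0.28, Cd3g 0.66, Dio2 0.06, Elovl5 -0.37, Fads1 0.24, Fads2 0.43, Gclm 0.24, Pck1 -0.21 and Spsb1 0.22. With quantile normalization Dgat2l4 was at -0.21. With the deposited table Cd3g was at 0.44 and Fads2 at 0.12, without its week 15 at 0.61 and 0.10, and in spot order Fads2 at 0.005. With brightness as a covariate Acta1 was at -0.94, Dio2 0.0383 and Gyk 0.12. With array weights Cpt1b was at 0.0258, Dio2 0.99, Fabp3 0.43, Gyk 0.80, Plin5 0.25 and Ucp1 0.38. With each week left out in turn the range was -1.34 to 0.58 for Cidea, -1.55 to 0.48 for Cox8b, -1.62 to 0.43 for Fabp3, -0.86 to 0.36 for Gyk and -1.40 to 0.98 for Ucp1, the highest values being those without week 3. It was -0.21 to 0.92 for Acta1, -0.72 to 0.83 for Dio2, -0.69 to 0.59 for Cd3g and -0.25 to 0.13 for Fads2. Settings of fewer weeks were chosen after the data were seen. At weeks 6, 15 and 18 Acta1 was at -0.0688, Cidea 0.19, Cox8b 0.77, Cpt1b 1.1, Dgat2 0.46, Dio2 1.69, Fabp3 1.58, Fos -0.15, Gyk 1.69, Plin5 1.47, Scd2 0.0471 and Ucp1 1.32. At weeks 3, 6, 15 and 18, alike in brightness, Acta1 was at -0.65, Dio2 0.11 and Gyk 0.30. At weeks 3, 12, 15 and 18, whose pairs shared a scan day, Acta1 was at -0.24 and Dio2 at 0.46.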

Other observations

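Further gene groups of the tissue were read on the same 12 arrays, and 0 of their genes passed the adjusted threshold with limma. Of 19 antioxidant genes 2 were higher and 3 lower at an unadjusted p under 0.05, where 7.73% of all genes were higher and 7.48% lower, and the counts below are to be read beside these shares. Gclm, the regulatory subunit of the enzyme that limits glutathione synthesis, was lower in HF75 at all 6 weeks (-0.76, SE 0.29), with -1.06 over weeks 6, 15 and 18 and 0.24 with the normexp background correction. Gsr, which regenerates glutathione, was higher at all 6 weeks (0.60, SE 0.25), with 0.76 over weeks 6, 15 and 18, and HFC minus LFC was -0.25. Hmox1, the heme oxygenase, was higher at 5 of 6 weeks (1.61, SE 0.57), with 1.48 over weeks 6, 15 and 18. The median of the list was -0.55.

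At the same unadjusted threshold 2 of 15 genes of the cell cycle list were higher, led by Mcm6, a helicase subunit of DNA replication, which was higher at all 6 weeks (1.31, SE 0.41, and 0.86 over weeks 6, 15 and 18). In the collagen and matrix list 1 of 21 was higher, which was Fn1, fibronectin (1.16, SE 0.47, and 0.36). In the glucocorticoid and metallothionein list 1 of 12 was higher, which was Sgk1, a kinase induced by glucocorticoids (1.53, SE 0.45, and 0.52). In the circadian clock list 1 of 14 was higher, which was Cry1, a repressor of the clock (0.85, SE 0.34, and 0.60), well above background on 3 of 6 HF75 arrays. These 4 genes were higher at all 6 weeks.

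The other lists had few genes at that threshold. The interferon stimulated list had 1 of 20 higher and a median of 0.91, or -0.33 over weeks 6, 15 and 18. The list of integrated and unfolded protein stress had 2 of 17 higher and a median of 0.22, and the heat shock and chaperone list 0 of 15 and -0.04. The imprinted growth list had 2 of 11 higher and 1 lower and a median of 0.26. The list of adipokines and secreted factors had 2 of 13 lower and a median of -0.42, or 0.02 over weeks 6, 15 and 18. The medians of the cell cycle, collagen and matrix, glucocorticoid and circadian lists were 0.43, -0.18, 0.51 and -0.04, and -0.11, -0.21, -0.18 and 0.06 over weeks 6, 15 and 18. Without week 3 the glucocorticoid median was 0.01, and that of collagen ran from -0.42 to 0.13 without 1 week.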
